A study of Homo sapiens with 13 samples.

Results

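The genes described here are 45 interferon-stimulated genes, taken by symbol from a count table of 45744 genes as those induced by type I or type II interferon, leaving out the STAT, IRF, GBP, OAS and SLFN families. All 45 were in the table once, and 44 had enough counts to be tested among 17252 genes; the exception, MX2, had 25 counts in all 13 libraries together. RNA sequencing had been done on HuT78, a single established T cell line derived from a patient with Sézary syndrome, in which malignant T cells of a skin lymphoma circulate in the blood. The cells had been treated for 72 h with 10 nM chaetocin (4 libraries, replicates 1 to 4), 10 nM F5446 (3 libraries, replicates 2 to 4), 1 µM romidepsin (4 libraries, replicates 1 to 4) or the vehicle DMSO (2 libraries, replicates 1 and 4). Chaetocin is a fungal metabolite that inhibits methyltransferases of histone H3 lysine 9, F5446 is a code-named inhibitor of the methyltransferase SUV39H1, and romidepsin inhibits histone deacetylases. The labels do not say whether replicates were separate cultures, so every p-value measures only the spread between these libraries.

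Type I interferons bind a receptor on nearly every cell and, through JAK kinases, activate STAT and IRF proteins that bind the interferon-stimulated response element (ISRE) in promoters. Type II interferon acts through another receptor and the gamma-activated site (GAS). The induced genes encode sensors of foreign RNA, proteins that block virus entry and replication, a ubiquitin-like modifier with its enzymes, and ADP-ribosylation enzymes. Many have some level without interferon, and inhibitors of histone methylation or deacetylation are studied for whether they change that level.

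The promoter stretches below are shown because they carry the ISRE, in members whose values are described later. Promoter windows from 250 bases before to 50 after each gene's start, from RefSeq on GRCh38.p14, were matched for 38 of the 45 members. The ISRE core, GAAA followed by any 2 bases and GAAA again and searched on both strands, was in 28 of these 38 (73.7%) and in 4.38% of the 27305 genes of the same table. The GAS core TTCNNNGAA, which is its own reverse complement, was in 9 of 38 (23.7%) and in 9.38% of all genes; matches to the cores can overlap in a window. The ISRE letters were not in the windows of DDX58, HERC6, CMPK2, ADAR, SAMD9L, IFI16, IFI35, SP100, SP110 and XAF1. Each stretch is written 5′ to 3′ on the gene's strand, and capitals mark the ISRE core or its reverse complement:
IFIT5, chr10:89414493-89414573, plus strand: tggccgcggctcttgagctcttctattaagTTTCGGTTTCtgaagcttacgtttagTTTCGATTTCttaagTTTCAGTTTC
PARP9, chr3:122564302-122564371, minus strand: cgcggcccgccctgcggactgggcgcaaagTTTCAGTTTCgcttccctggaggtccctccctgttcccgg
DTX3L, chr3:122564302-122564341, plus strand: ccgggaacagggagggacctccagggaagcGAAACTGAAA
PARP14, chr3:122680780-122680838, plus strand: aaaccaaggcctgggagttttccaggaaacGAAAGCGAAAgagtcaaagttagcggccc
RSAD2, chr2:6877602-6877671, plus strand: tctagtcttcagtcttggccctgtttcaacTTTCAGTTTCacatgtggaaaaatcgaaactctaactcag
IFITM1, chr11:313970-314043, plus strand: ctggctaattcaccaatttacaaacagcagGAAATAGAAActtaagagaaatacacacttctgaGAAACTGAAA
ISG15, chr1:1013354-1013429, plus strand: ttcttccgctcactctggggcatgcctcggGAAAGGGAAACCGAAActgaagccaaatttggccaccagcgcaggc
IFIT5 held 3 matches, of which the nearest began 4 bases before the start. In PARP9 and DTX3L, neighbours read from opposite strands, the capitals mark the same 10 bases of the genome. PARP14 had 1 match that began 29 bases before its start. The matches in ISG15 overlap.

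The libraries held 19901052 to 30816188 counts each. Chaetocin replicate 3 stood apart on the first principal component over all genes tested (17.8% of the variance), at 112.7 against -36.7 to 18.7 in the other 12 libraries, and libraries numbered 1 or 2 lay below 0 and those numbered 3 or 4 above. The T cell markers CD3E, CD4, TRAC and TRBC2 were at 185.8, 207.5, 208.4 and 213.4 CPM in DMSO, where CPM is the count scaled to the normalized library size, while CD28 was at 0.120. The B cell gene PAX5 and the monocyte gene CD14 had 6 and 22 counts in all libraries together, and CD68 had 0. Other genes on these lists had more, with 1650 counts for CD79B, 621 for ITGAM and 268 for CSF1R. Outside the T cell list, CD79A reached 78.0 CPM, and COL1A1, PDGFRB, EPCAM and KRT8 were at 18.1, 17.9, 24.1 and 57.0 CPM in DMSO. The part of these markers in the results below was not tested.

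Without drug, the levels of the interferon-stimulated genes spanned from no counts to the top of the expression range. Per kilobase of exon, IFITM1 stood highest in DMSO at 575 CPM per kilobase, above 99.6% of the genes tested. IFITM2 followed at 177, the nuclear DNA sensor gene IFI16 at 71.8, the virion tether gene BST2 at 71.5, the secreted glycoprotein gene LGALS3BP at 40.7 and the RNA editing enzyme gene ADAR at 39.7. At the other end were the dynamin-like GTPase gene MX1 at 0.346, IFIT1 at 0.119, IFI44L at 0.0212 and MX2 at 0.0147 CPM per kilobase, and IFI27 had no counts in DMSO. The median of all genes tested was 2.59 CPM per kilobase, and 27 of the 45 members were above it. Genes known for strong induction were found at both ends, with ISG15 at 16.7 CPM per kilobase and MX1 above only 18.7% of the genes tested. On the CPM scale, 35 members had a mean of at least 5 CPM over all libraries, 6 lay between 1 and 5 (IFIT2, IFIT3, IFITM3, DDX58, MX1 and RSAD2) and 4 below 1 (IFIT1, MX2, IFI27 and IFI44L). Exon lengths came from an annotation on GRCh38, while the counts were made on hg19.

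**Figure D1:**
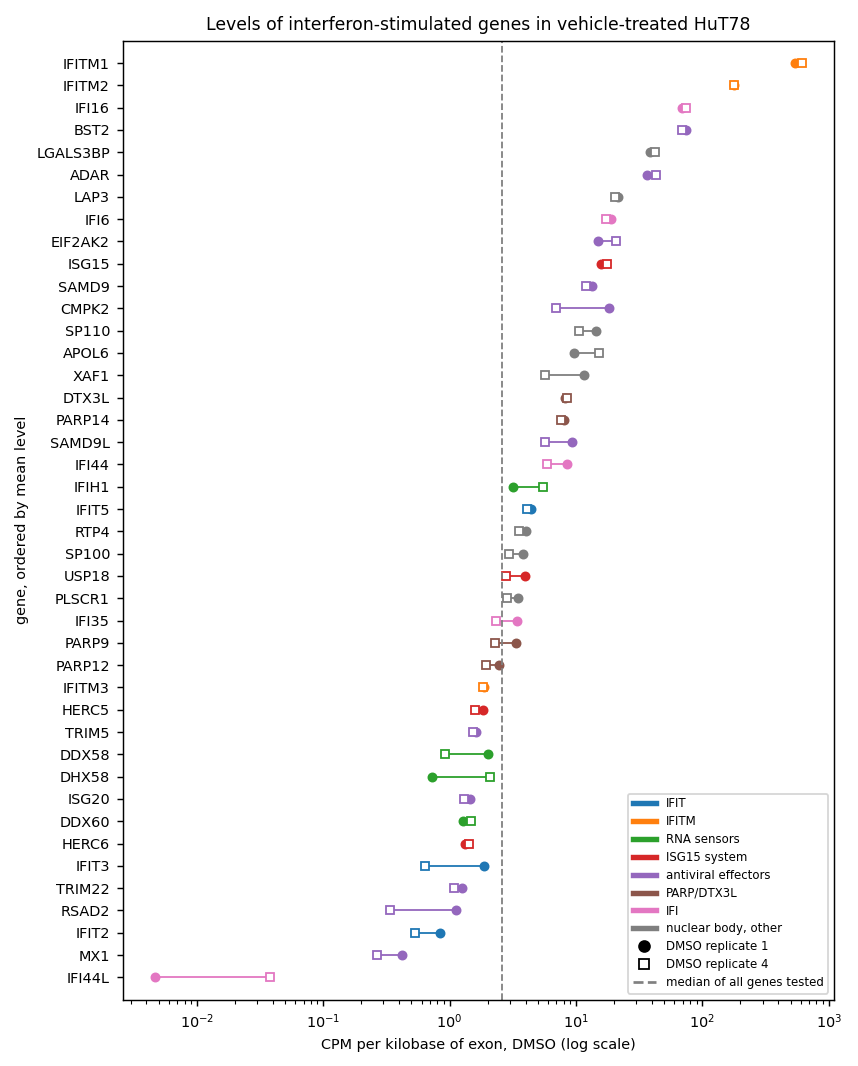
Level of each member in the DMSO libraries in CPM per kilobase of exon (log axis), filled circles for replicate 1 and open squares for replicate 4, coloured by role; IFIT1, MX2 and IFI27 are left out because at least 1 DMSO library had no counts. IFITM1 stands alone at the top at a mean of 575, and 27 of the 45 members lie above the median of all genes tested (dashed line, 2.59).

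Among the IFIT genes, whose products bind foreign or uncapped RNA, IFIT5 had the highest mean CPM. IFIT5 was at 17.8 and 16.4 CPM in DMSO replicates 1 and 4, at 13, 12.4, 8.17 and 11.5 in chaetocin replicates 1 to 4, at 15.2, 13.7 and 18.2 in F5446 replicates 2 to 4, and at 15.6, 13.2, 14.5 and 13.8 in romidepsin replicates 1 to 4. Every chaetocin library was below every library of the other groups. IFIT2 and IFIT3 had means of 3.81 and 2.14 CPM and IFIT1 of 0.385.

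The IFITM genes encode membrane proteins that hinder virus entry. IFITM1 was at 581.6 and 659.8 CPM in DMSO, 504.0, 607.2, 732.1 and 810.5 in chaetocin, 641.2, 779.8 and 729.9 in F5446 and 477.6, 534.5, 684.8 and 687.6 in romidepsin, always in order of replicate number. The groups overlapped, and within each group the libraries numbered 3 or 4 were above those numbered 1 or 2. IFITM2 had a mean of 280.0 CPM and IFITM3 of 1.8. These 3 genes are similar in sequence to differing degrees, and how reads that match more than 1 of them were counted is not given.

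Of the RNA sensors and their helper helicases, IFIH1, which encodes the long-RNA sensor MDA5, was the most abundant. IFIH1 was at 16.2 and 28.2 CPM in DMSO, 23.8, 15.8, 33.9 and 32.5 in chaetocin, 24.3, 27.6 and 32.1 in F5446 and 17.6, 15.8, 24.3 and 20.5 in romidepsin. The groups overlapped throughout. DDX58, the gene of the sensor RIG-I, was at a mean of 4.31 CPM, DHX58 at 7.24 and DDX60 at 9.11.

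ISG15 encodes the ubiquitin-like modifier, HERC5 its ligase and USP18 the protease that removes it. ISG15 was at 14.9 and 16.5 CPM in DMSO, 13.9, 15.3, 31.7 and 20.2 in chaetocin, 20.8, 17.7 and 19.9 in F5446 and 12.2, 20.1, 23.5 and 19.2 in romidepsin. Chaetocin replicate 3 was the highest library. HERC5, HERC6 and USP18 had means of 9.85, 8.98 and 7.09 CPM.

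Antiviral effectors were the largest group, with 12 members. ADAR, whose product edits adenosines in double-stranded RNA, led it at 351.0 and 418.7 CPM in DMSO, 344.1, 334.5, 411.6 and 388.9 in chaetocin, 351.3, 431.4 and 437.8 in F5446 and 378.3, 360.4, 406.0 and 413.0 in romidepsin. The treatments overlapped, and the libraries numbered 3 or 4 were all above those numbered 1 or 2. EIF2AK2, the gene of the translation-blocking kinase PKR, had a mean of 177 CPM, and RSAD2, which encodes viperin, of 3.18.

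Among the ADP-ribosylation genes, PARP14 had the highest mean. PARP14 was at 84.5 and 80.5 CPM in DMSO, 80.8, 68.0, 55.9 and 53.2 in chaetocin, 75.7, 64.3 and 73.5 in F5446 and 97.7, 95.7, 75.1 and 76.2 in romidepsin. Of the 4 chaetocin libraries 3 were below both DMSO libraries, and the other lay between them. DTX3L, a ubiquitin ligase that partners PARP9, had a mean of 41.0 CPM, PARP9 of 19.6 and PARP12 of 11.5.

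IFI16 was the most abundant of the IFI genes, at 364.0 and 396.6 CPM in DMSO, 349.3, 379.4, 449.3 and 413.5 in chaetocin, 432.2, 419.6 and 388.3 in F5446 and 360.1, 439.0, 466.0 and 440.4 in romidepsin. The groups overlapped. LGALS3BP led the nuclear body and remaining genes at 139.3 and 152.2 CPM in DMSO, 142.3, 151.6, 171.1 and 149.3 in chaetocin, 150.6, 161.3 and 165.1 in F5446 and 142.0, 161.0, 157.5 and 164.4 in romidepsin. These groups overlapped as well.

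**Figure D2:**
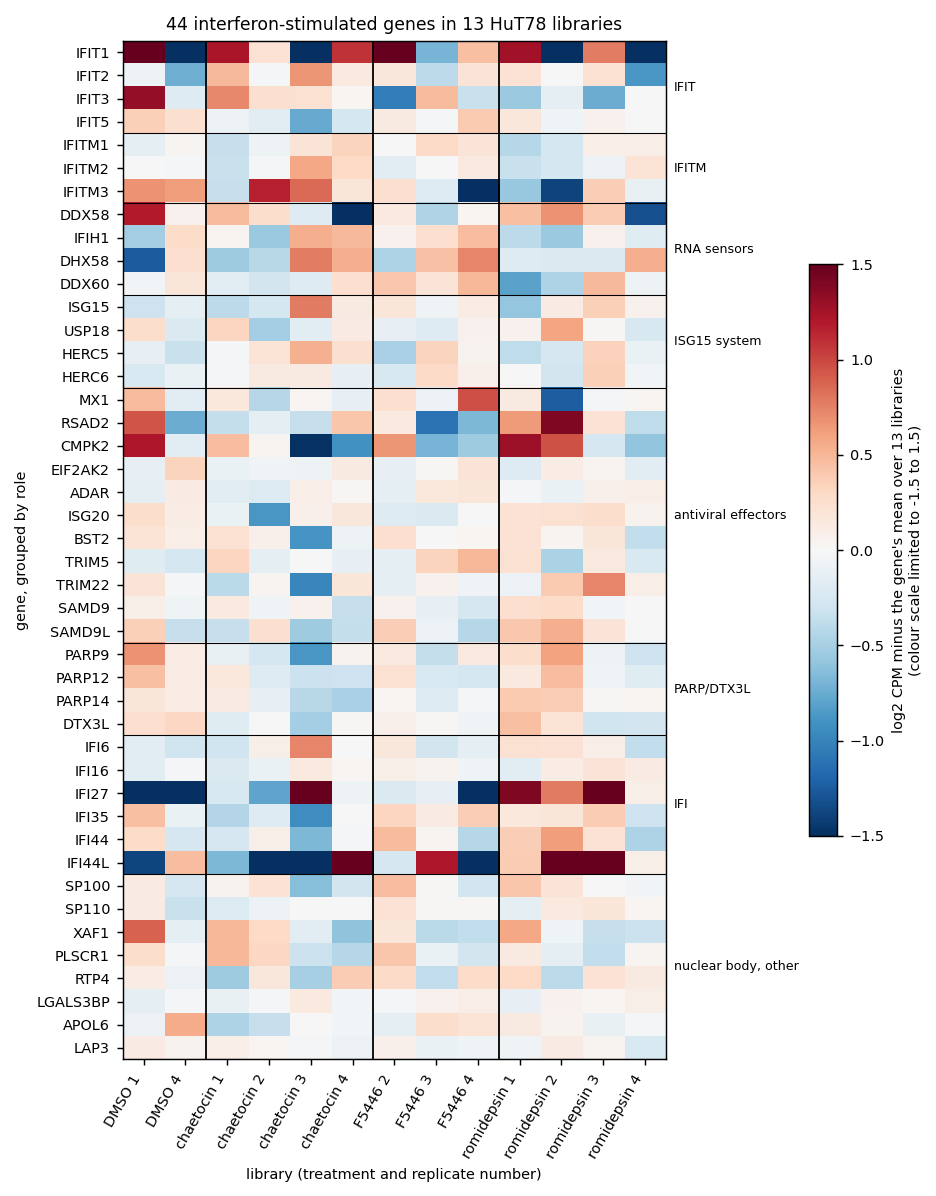
Log2 CPM of the 44 members tested minus each gene's mean over the 13 libraries, with libraries in columns by treatment and genes in rows by role (colour limited to -1.5 to 1.5). No treatment forms a block of 1 colour, and CMPK2 is red in most libraries numbered 1 or 2 and blue in those numbered 3 or 4.

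Chaetocin was compared with DMSO to see which transcripts a methyltransferase inhibitor changes. None of the 44 members tested was called, where a gene is called at an edgeR adjusted p under 0.05 over all genes tested, and 0% of all 17252 genes were called (703 at an unadjusted p under 0.05, 4.07%). DESeq2 and limma-voom called 0 members in each of the 5 comparisons. At that unadjusted level 5 members had lower means with chaetocin (IFIT5, APOL6, PARP9, DTX3L and PARP14), against 1.91% of all genes, and 1 had a higher mean (IFI27), against 2.16%. Below 0 were 29 of 44 log2 differences, against 49.0% of all genes; the members' median was -0.08 and that of all genes 0.01. Leaving out DMSO replicate 1 moved the members' median to 0.01, leaving out DMSO replicate 4 to -0.18, and leaving out chaetocin replicate 4 to -0.21. Without chaetocin replicate 3 the count of 5 was 2 (IFIT5 and APOL6, against 1.89% of all genes) and the median -0.09.

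The IFIT5 libraries given above averaged 11.3 ± 2.15 CPM (SD, n = 4) under chaetocin against 17.1 ± 0.988 (SD, n = 2) in the vehicle, and did not overlap. The log2 difference was -0.60 (95% interval -1.06 to -0.14, edgeR adjusted p = 1).

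PARP9, an ADP-ribosyltransferase family member that works with DTX3L, was at 30.2 and 20.4 CPM in DMSO and at 17.5, 15.7, 10.3 and 19.6 in chaetocin replicates 1 to 4. The groups did not overlap, though chaetocin replicate 4 came close to DMSO replicate 4. Its log2 difference was -0.68 (95% interval -1.24 to -0.13, edgeR adjusted p = 1), or -0.37 without DMSO replicate 1. DTX3L was at 47.9 and 50.2 CPM in DMSO and 35.5, 40.4, 28.3 and 40.7 in chaetocin. All chaetocin libraries were lower, with a log2 difference of -0.43 (95% interval -0.85 to -0.02, edgeR adjusted p = 1). For PARP14 the log2 difference was -0.36 (95% interval -0.71 to -0.004, edgeR adjusted p = 1). With PARP12 at -0.45, the 4 ADP-ribosylation genes were all below 0.

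APOL6, an apolipoprotein L family member, was at 97.9 and 152.9 CPM in DMSO and at 75.7, 81.9, 104.4 and 101.7 in chaetocin. DMSO replicate 4 was above every chaetocin library, while DMSO replicate 1 lay among them. The log2 difference was -0.46 (95% interval -0.83 to -0.10, edgeR adjusted p = 1), and it was -0.11 without DMSO replicate 4 and -0.75 without DMSO replicate 1.

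IFI27, a mitochondrial protein gene that interferon induces strongly in many cells, was near the floor. It had 0 and 0 counts in the DMSO libraries and 3, 2, 25 and 4 in chaetocin replicates 1 to 4. Against a floor of 3 counts over the DMSO group (0.0722 CPM), the chaetocin level was 4.68-fold higher. Without chaetocin replicate 3, which held most of the counts, it was 1.55-fold higher. These folds bound only the DMSO side and leave out the spread between chaetocin libraries. In the edgeR fit the 95% interval of the log2 difference was 0.80 to 11.7. Without chaetocin replicate 3 the unadjusted edgeR p was 0.093. Libraries did not overlap for 3 members lower with chaetocin (IFIT5, PARP9 and DTX3L; 6.09% of all genes) and for 4 higher (IFIT2, HERC5, TRIM5 and IFI27; 5.22%). By role, 10 of the 11 antiviral effectors tested were below 0, and 3 of the 4 ISG15 system genes above it, where 49.0% of all genes were below 0. The 11 effectors ran from -0.96 to 0.26, with 0 at an unadjusted edgeR p under 0.05. All of these values share the same DMSO libraries. The 95% intervals of 28 of the 44 members lay within a 2-fold change either way, so a larger change of those genes was outside the interval; 54.2% of all genes had such an interval.

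**Figure D3:**
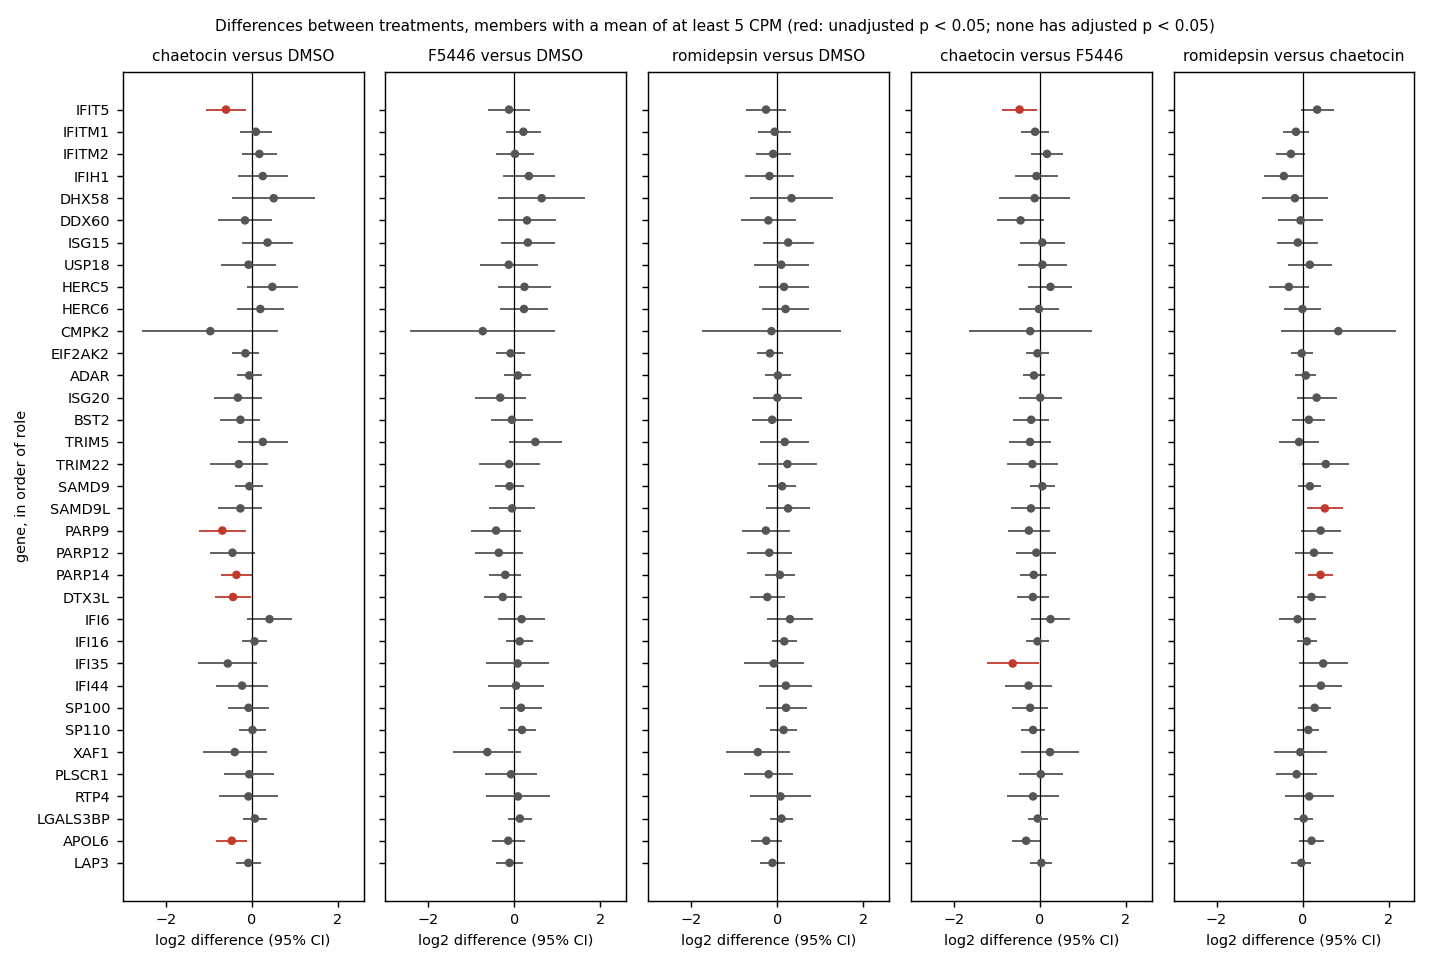
Log2 difference with its 95% interval for the 35 members with a mean of at least 5 CPM in each of the 5 comparisons; red points have an unadjusted p under 0.05. No point is past the adjusted threshold. The ADP-ribosylation genes lie left of 0 for chaetocin versus DMSO and right of 0 for romidepsin versus chaetocin. Both comparisons use the same chaetocin libraries.

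F5446 was compared with DMSO to see which transcripts the SUV39H1 inhibitor changes. None of the members was called, and 0% of all genes were (2.48% at an unadjusted p under 0.05). At that level there were 0 members in either direction, against 0.968% of all genes lower and 1.51% higher. Of the 44 log2 differences 22 were below 0, against 48.6% of all genes, with a median of -0.02 for members and 0.01 for all genes. Among members of at least 5 CPM the smallest p-values were those of XAF1, TRIM5, PARP9, PARP12 and DHX58. Summed monocyte or macrophage markers were low but did not overlap, at 1.55 to 1.82 CPM in DMSO and 2.33 to 3.17 with F5446. In DMSO most of this sum was ITGAM, at a mean of 1.42 CPM. All F5446 libraries were above both DMSO libraries for 9.44% of all genes. The part of these markers in the result was not tested.

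XAF1, which encodes a partner of the apoptosis inhibitor XIAP, was at 76.6 and 37.5 CPM in DMSO and 47.0, 31.3 and 32.1 in F5446 replicates 2 to 4. The groups overlapped, since F5446 replicate 2 was above DMSO replicate 4, and DMSO replicate 1 was far above the rest. Its log2 difference was -0.63 (95% interval -1.42 to 0.16, edgeR adjusted p = 1), -0.04 without DMSO replicate 1 and -1.05 without DMSO replicate 4. TRIM5, a restriction factor that binds retroviral capsids, was at 7.76 and 7.34 CPM in DMSO and 8.08, 11.1 and 12.6 in F5446. Its F5446 libraries were all higher, with a log2 difference of 0.49 (95% interval -0.12 to 1.10, edgeR adjusted p = 1).

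PARP9 was at 20.9, 14.7 and 20.9 CPM with F5446, overlapping the DMSO range, and its log2 difference was -0.43 (95% interval -1.02 to 0.16, edgeR adjusted p = 1). It was -0.28 when F5446 replicate 3 was left out, -0.13 for DMSO replicate 1 and -0.68 for DMSO replicate 4. PARP12, another ADP-ribosyltransferase gene, was at 15.5 and 12.2 CPM in DMSO and 13.2, 9.60 and 9.35 in F5446. These groups overlapped too (log2 difference -0.36, 95% interval -0.92 to 0.19, edgeR adjusted p = 1), and leaving out F5446 replicate 2 gave -0.55, DMSO replicate 1 -0.19. DHX58, the gene of the RIG-I-like regulator LGP2, was at 2.78 and 8.02 CPM in DMSO and 4.85, 9.12 and 11.2 in F5446. DMSO replicate 1 was the lowest of the 5 libraries; the log2 difference was 0.63 (95% interval -0.37 to 1.64, edgeR adjusted p = 1), 0.37 when F5446 replicate 4 was left out, 0.05 for DMSO replicate 1 and 1.59 for DMSO replicate 4.

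The libraries of 4 members were all lower with F5446 (IFITM3, ISG20, PARP14 and DTX3L; 9.12% of all genes) and those of 3 all higher (DDX60, ISG15 and TRIM5; 9.44%). All 4 ADP-ribosylation genes were below 0 here as well, with a median of -0.32; the comparisons with DMSO share its 2 libraries. The intervals of 30 members lay within 2-fold, against 53.1% of all genes.

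Romidepsin was compared with DMSO to see which transcripts the deacetylase inhibitor changes. Inhibition of histone deacetylases is not part of these data. None of the members was called, and 0% of all genes were (2.82% at an unadjusted p under 0.05). At that level IFIT3 had a lower mean (1.0% of all genes) and IFI27 a higher one (1.82%). Below 0 were 21 of 44, against 48.9% of all genes, with medians of 0.01 for members and 0.01 for all genes. Of the low-count genes, IFIT3 was at 4.98 and 1.69 CPM in DMSO and 1.30, 1.75, 1.14 and 1.95 in romidepsin. Its groups overlapped, and DMSO replicate 1 alone was high (log2 difference -1.12, 95% interval -2.21 to -0.03, edgeR adjusted p = 1). IFI27 had 13, 7, 21 and 4 counts in romidepsin replicates 1 to 4, and every romidepsin library was above both DMSO libraries. It was 6.58-fold above the DMSO floor, a fold that again bounds only the DMSO side.

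The monocyte or macrophage markers, at 1.91 to 4.55 CPM in sum with romidepsin, did not overlap DMSO here either, and their part was not tested. All romidepsin libraries were above both DMSO libraries for 5.34% of all genes. Among members of at least 5 CPM the smallest p-values were those of APOL6, XAF1, IFI6, IFIT5 and IFI16. APOL6 was at 114.1, 107.9, 96.5 and 101.7 CPM with romidepsin, all within the range of the DMSO libraries except replicate 3, with a log2 difference of -0.26 (95% interval -0.62 to 0.11, edgeR adjusted p = 1). It was 0.10 without DMSO replicate 4 and -0.54 without DMSO replicate 1. XAF1 was at 61.9, 39.7, 32.5 and 33.1 CPM, overlapping DMSO. Its log2 difference was -0.45 (95% interval -1.20 to 0.30, edgeR adjusted p = 1), 0.16 without DMSO replicate 1, -0.70 without romidepsin replicate 1 and -0.87 without DMSO replicate 4.

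IFI6, a gene of a small mitochondrial protein, was at 16.3 and 15.0 CPM in DMSO and 21.6, 21.3, 19.8 and 14.2 in romidepsin. Only romidepsin replicate 4 was below the DMSO libraries (log2 difference 0.30, 95% interval -0.23 to 0.83, edgeR adjusted p = 1). IFIT5, from the values above, was lower in all 4 romidepsin libraries than in DMSO, by a log2 difference of -0.26 (95% interval -0.72 to 0.20, edgeR adjusted p = 1). IFI16 overlapped, at 0.17 (95% interval -0.13 to 0.46, edgeR adjusted p = 1), or 0.10 without DMSO replicate 1. Libraries did not overlap for IFIT5 and IFITM3, both lower (4.98% of all genes), and for IFI27, higher (5.34%). All 4 ISG15 system genes were above 0, from 0.09 to 0.26, and all 4 of their intervals lay within 2-fold. Of the 4 ADP-ribosylation genes 3 were below 0, with a median of -0.21. In total the intervals of 32 members lay within 2-fold, against 54.7% of all genes.

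Chaetocin and F5446 shared a dose of 10 nM and a time of 72 h and could be set against each other directly. Inhibition of their target is not part of these data. None of the members was called, and 0% of all genes were (3.4% at an unadjusted p under 0.05). At that level IFIT5 and IFI35 had lower means with chaetocin (1.97% of all genes) and 0 members higher ones (1.43%). Below 0 were 28 of 44 members, against 50.1% of all genes, with medians of -0.08 and 0.00. Without chaetocin replicate 3 the count was 1 (APOL6, against 1.71% of all genes) and the median -0.04. Summed epithelial markers did not overlap, at 97.8 to 114.9 CPM with chaetocin and 115.3 to 119.0 with F5446, and their part in the result was not tested.

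IFIT5 did not overlap between the compounds, with 11.3 ± 2.15 CPM (SD, n = 4) under chaetocin and 15.7 ± 2.29 (SD, n = 3) under F5446. The log2 difference was -0.47 (95% interval -0.88 to -0.06, edgeR adjusted p = 1). IFI35, whose product regulates innate signalling, was at 3.61, 4.29, 2.54 and 4.94 CPM with chaetocin and 6.16, 5.39 and 6.38 with F5446. These too were apart, by -0.63 (95% interval -1.24 to -0.03, edgeR adjusted p = 1).

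APOL6 was at 95.2, 125.1 and 120.3 CPM with F5446, where the lowest fell within the chaetocin range, with a log2 difference of -0.32 (95% interval -0.64 to 0.00, edgeR adjusted p = 1). DDX60, a helicase-like antiviral gene, was at 7.87, 7.29, 7.72 and 10.5 CPM with chaetocin and 11.7, 10.1 and 12.5 with F5446. One chaetocin library reached into the F5446 range (log2 difference -0.45, 95% interval -1.0 to 0.11, edgeR adjusted p = 1). SP110, a nuclear body gene, was at 79.2, 85.7, 91.4 and 90.8 CPM with chaetocin and 106.0, 92.3 and 92.2 with F5446. It was lower in every chaetocin library but by little, at -0.16 (95% interval -0.43 to 0.11, edgeR adjusted p = 1), or -0.09 without F5446 replicate 2. IFIT5, IFI35 and SP110 were the members whose libraries did not overlap (3.11% of all genes), and 0 members had all chaetocin libraries higher (2.28%). Intervals lay within 2-fold for 32 of 44 members, against 57.7% of all genes; for the other 12 a 2-fold difference between the compounds was inside the interval.

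Romidepsin and chaetocin, the groups with 4 libraries each, differ in dose as well as target. This comparison called 16 genes (0.0927% of all genes) and 0 members. At an unadjusted p under 0.05 (5.44% of all genes), PARP14 and SAMD9L had higher means with romidepsin (3.37% of all genes) and 0 members lower ones (2.07%). Below 0 were 19 of 44 members and 51.2% of all genes, with a median of 0.12 against -0.01 for all genes. That median was 0.03 without chaetocin replicate 2 and 0.04 without chaetocin replicate 1. The epithelial markers did not overlap between these groups either, at 120.5 to 164.9 CPM in sum with romidepsin against the chaetocin range above, and their part was not tested.

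PARP14 averaged 86.2 ± 12.2 CPM (SD, n = 4) under romidepsin and 64.5 ± 12.7 (SD, n = 4) under chaetocin. The groups overlapped, since chaetocin replicate 1 was above the romidepsin libraries numbered 3 and 4; the log2 difference was 0.42 (95% interval 0.13 to 0.71, edgeR adjusted p = 0.585). SAMD9L, a gene of translation control and growth restraint, was at 68.0, 74.9, 58.7 and 51.7 CPM with romidepsin and 40.4, 60.5, 35.6 and 40.3 with chaetocin. Only chaetocin replicate 2 reached the romidepsin range (log2 difference 0.52, 95% interval 0.10 to 0.94, edgeR adjusted p = 0.845). A fit with a term for sets of replicate numbers, chosen after the values were seen and described further on, called SAMD9L. TRIM22, another antiviral TRIM protein gene, was at 6.22, 8.75, 11.1 and 7.10 CPM with romidepsin and 5.0, 6.85, 3.34 and 7.54 with chaetocin.

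For TRIM22 the groups overlapped, with a log2 difference of 0.54 (95% interval -0.01 to 1.09, edgeR adjusted p = 0.933), or 0.35 without chaetocin replicate 3. IFIH1 lay the other way, at -0.44 (95% interval -0.90 to 0.03, edgeR adjusted p = 0.957), and the groups overlapped. PARP9 was at 22.7, 28.7, 17.9 and 15.2 CPM with romidepsin, overlapping chaetocin, with 0.42 (95% interval -0.04 to 0.88, edgeR adjusted p = 0.970), or 0.24 without romidepsin replicate 2 and 0.26 without chaetocin replicate 3. All 4 ADP-ribosylation genes were above 0 and all 3 IFITM genes below, where 51.2% of all genes were below 0. Libraries did not overlap for IFIT3, lower with romidepsin (1.36% of all genes), and IFIT5, higher (2.24%). The intervals of 33 members lay within 2-fold, against 59.3% of all genes.

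**Figure D4:**
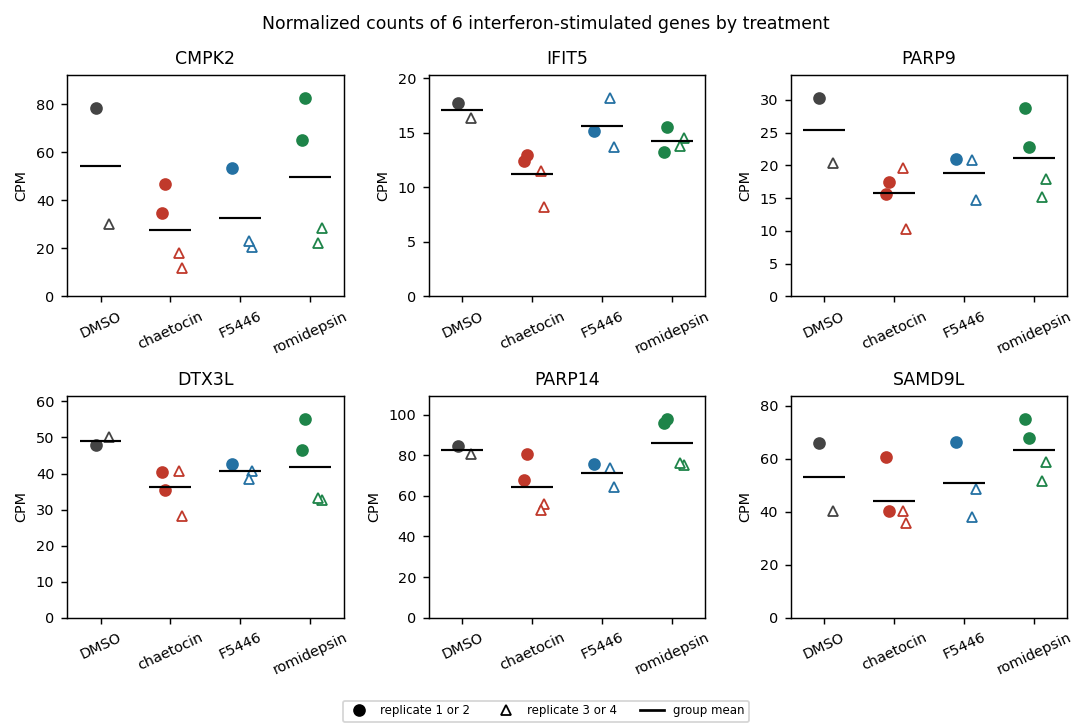
CPM of 6 members in every library by treatment, filled circles for replicate numbers 1 and 2, open triangles for 3 and 4, and bars for group means. In CMPK2 the circles sit above all triangles, and within each symbol the chaetocin libraries are the lowest; in IFIT5 the chaetocin libraries, 8.17 to 13 CPM, lie below all others.

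Replicate number separated some members more than treatment did. This division and CMPK2 as an example were chosen after the values were seen. CMPK2, a nucleotide kinase gene next to RSAD2, was at 78.3 and 30.1 CPM in DMSO replicates 1 and 4, 46.6, 34.7, 12 and 17.9 in chaetocin, 53.5, 20.7 and 23.3 in F5446 and 82.4, 65.2, 28.3 and 22.3 in romidepsin. Its 6 libraries numbered 1 or 2 had a mean of 60.1 CPM and its 7 numbered 3 or 4 a mean of 22.1, with no overlap. XAF1 and SP100, a nuclear body gene, were likewise higher in all libraries numbered 1 or 2, making 3 of 44 members against 2.25% of all genes. ADAR and IFITM1 were lower in all of them, 2 of 44 against 3.23%.

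Within both sets of replicate numbers, the chaetocin libraries of CMPK2 and IFIT5 were below every other library of the set. That is 2 of 44 members (4.55%), against 203 of all genes (1.18%). SAMD9L was higher in the romidepsin libraries than in all others of each set (0.840% of all genes), and XAF1 in the DMSO libraries (2.68%). The sets hold 1 DMSO library each, so these orders rest on few libraries.

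The sets were chosen after the values were seen, and the p-values of a fit that uses them do not allow for that choice. With a term for the sets in the edgeR fit, CMPK2 was lower with chaetocin than with DMSO. The log2 difference was -0.98 (95% interval -1.31 to -0.64, edgeR adjusted p = 0.00769), where the fit without the term gave -0.96 (95% interval -2.54 to 0.62, edgeR adjusted p = 1). It was then 1 of 7 genes called (0.0406%), and 9 members were lower at an unadjusted p under 0.05, against 3.18% of all genes. For romidepsin against chaetocin the fit with the term called CMPK2 (log2 difference 0.81, edgeR adjusted p = 0.00157) and SAMD9L (0.52, edgeR adjusted p = 0.0420), both higher with romidepsin, among 108 genes (0.626%). No member was called with the term in the other 3 comparisons, where 0, 1 and 5 genes were called (0%, 0.00580% and 0.0290%).

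The members did not vary as one block. Over the 595 pairs among the 35 members of at least 5 CPM, the median Pearson r of log2 CPM across the 13 libraries was 0.04, with 38 pairs over 0.7 and 28 under -0.7. CMPK2 and PARP12 were most alike (r = 0.89), followed by pairs such as SAMD9L and the cytoplasmic protein gene IFI44 (0.88). At the other end were IFITM1 and CMPK2 (-0.85) and IFIH1 and SAMD9L (-0.85). These 13 points share the replicate sets and treatments, so the values describe these libraries only.

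Neighbours in the genome had r of 0.76 for PARP9 and DTX3L, 0.78 for IFITM1 and IFITM2, 0.73 for HERC5 and HERC6, 0.65 for CMPK2 and RSAD2, 0.58 for SAMD9 and SAMD9L and 0.50 for IFI44 and IFI44L. IFIT2 and IFIT3, also neighbours, were at -0.06, and SP100 and SP110, which have 2 coding genes between them, at 0.24. TRIM5 and TRIM22, of the same family, were at -0.22. Whether neighbours that overlap, or genes similar in sequence, share reads was not tested.

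**Figure D5:**
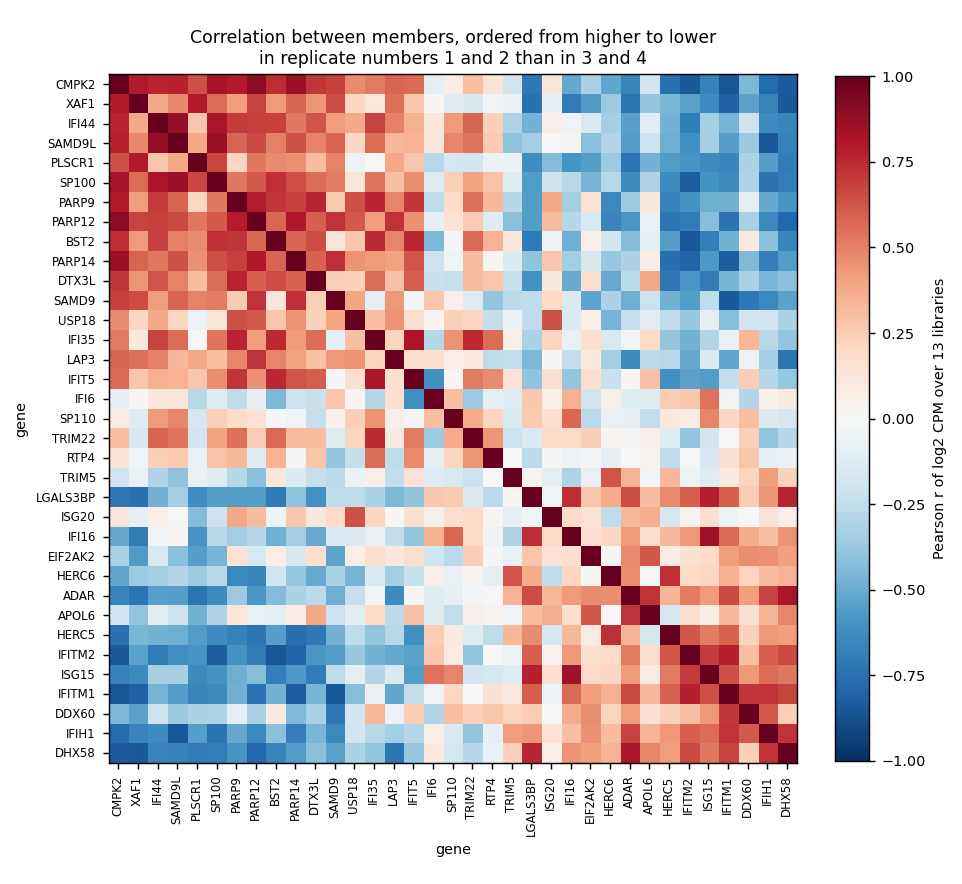
Pearson r of log2 CPM over the 13 libraries for each pair of the 35 members of at least 5 CPM, ordered from genes higher in replicate numbers 1 and 2 to genes lower in them. Red blocks at both corners and blue between them show members such as CMPK2, XAF1 and IFI44 varying opposite to IFITM1, IFIH1 and DHX58, with a median r of 0.04 over all pairs.

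Interferon ligands and receptors were given as context. IFNA1, IFNA2 and IFNB1, the type I ligands on the list, and SOCS1, a feedback inhibitor, had 0 counts in all 13 libraries, which allows a level of up to 0.00955 CPM over all libraries together. The receptor genes IFNAR1, IFNAR2 and IFNGR1 and the kinase genes JAK1 and TYK2 had means of 61.6, 24.2, 24.0, 129.1 and 58.6 CPM. IFNG, the type II ligand, ranged from 0 to 4.70 CPM over the libraries and averaged 0.402 ± 0.397 CPM (SD, n = 4) under chaetocin against 3.0 ± 2.40 (SD, n = 2) in the vehicle. Its log2 difference was -2.88 (95% interval -4.70 to -1.07, edgeR adjusted p = 1). IRF1, a factor that interferon gamma induces, was at 101.0 ± 10.5 against 144.9 ± 16.0 CPM (log2 difference -0.52, 95% interval -0.93 to -0.11, edgeR adjusted p = 1). In the 3 comparisons with DMSO, fitted without the set term, 0 of the 21 genes tested on this list were called.

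The 13 OAS, GBP and SLFN genes, other interferon-induced families, were all tested and 0 were called for chaetocin against DMSO. At an unadjusted p under 0.05, 7 of the 13 were lower there, against 5 of the 44 members and 1.91% of all genes, and their median was -0.44. For romidepsin against chaetocin 2 of the 13 were called, both higher with romidepsin. GBP2, a guanylate-binding GTPase gene, was at 32.6 ± 6.85 against 14.5 ± 1.17 CPM (log2 difference 1.17, edgeR adjusted p = 0.00625), and OAS2, an oligoadenylate synthetase gene, at 98.4 ± 4.15 against 60.5 ± 8.55 CPM (0.70, edgeR adjusted p = 0.0101; SD, n = 4 in each group). With the set term, 3 of the 13 were called lower with chaetocin than with DMSO, which were SLFN5 (-0.87, edgeR adjusted p = 0.000999), GBP1 (-0.73, edgeR adjusted p = 0.0138) and OAS2 (-0.63, edgeR adjusted p = 0.0401). That fit called 1 for chaetocin against F5446 (SLFN5), 5 for romidepsin against chaetocin (GBP1, GBP2, GBP5, OAS2 and SLFN5) and 0 in the other 2 comparisons. The difference between these families and the members was not tested.

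Members with and without the ISRE letters were set side by side. For chaetocin against DMSO, the 28 matched members with an ISRE in the window had a median log2 difference of -0.11, with 19 below 0, and the 10 without had -0.17, with 7 below 0. The medians with and without were -0.07 and 0.08 for F5446 against DMSO, -0.08 and 0.08 for romidepsin against DMSO, -0.07 and -0.15 for chaetocin against F5446 and 0.00 and 0.21 for romidepsin against chaetocin, so the order of the sets was not the same in all 5 comparisons. IFIT5, PARP9, DTX3L and PARP14, shown above, have the element, while CMPK2 and SAMD9L, called with the set term, do not have these letters in the windows searched.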

How the data were processed

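The deposited values are raw counts per gene, whole numbers for 45744 genes in 13 libraries. Per the submitters' processing notes, the tools were bcl2fastq 2.20.0.422, cutadapt 1.8.1 and HTSeq 0.6.1, on hg19. Aligner, strand setting and annotation: not given in the sources used here. F5446 libraries were grouped by their titles, because the treatment tags end in different digits.

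Genes were kept by edgeR's filterByExpr, and all libraries were fitted with group as the only term, in edgeR 4.0.16 under R 4.3.3 (TMM, robust quasi-likelihood F test, two-sided, Benjamini-Hochberg over 17252 genes, threshold 0.05). CPM used TMM library sizes, and log2 CPM a prior count of 2. Depth was 19901052 to 30816188 counts per library. The script was tested on simulated data. Members and lists were chosen with earlier results of these data known. Values in every library are given for the 5 members with the smallest p in each comparison, with a mean of at least 5 CPM, and for the most abundant member of each role; other members were named after their values were seen. Of context genes, those called or among the 3 with the smallest p in a list could be named; some context and marker genes are not reported here.

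Alternatives were DESeq2 1.42.0, limma-voom (limma 3.58.1), RLE and upper-quartile scaling, all genes kept, only genes averaging 5 CPM kept, the 2 groups alone, a replicate block, a term for the sets of replicate numbers (1 or 2, 3 or 4), and each library left out. The order of groups within both sets of numbers was added after the data were seen. Figures used matplotlib 3.10.9.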

Additional observations from a re-analysis of the deposited data

Results flagged for a closer look

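In 4 of 89 groups of 4 libraries, 1 library was far from the other 3 (a gap to the nearest that took most of the group's range); chance gives such a gap in about 1 group in 20. DHX58 was at 9.84 CPM in romidepsin replicate 4 and at 5.75 to 5.86 in the other 3 romidepsin libraries. MX1 was at 1.05 CPM in romidepsin replicate 2 and at 2.56 to 2.86 in the others. IFI27 was at 1.25 CPM in chaetocin replicate 3, the library that stood apart over all genes, and at 0.0626 to 0.155 in the other chaetocin libraries. IFI44L was at 1.24 CPM in chaetocin replicate 4 and at 0 to 0.130 in the others.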

How the results depend on the processing

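Of the recomputed values, 578 kept their direction and their side of the threshold or stayed near the value given, 33 moved, 3 came past the threshold and 2 reversed. For chaetocin against DMSO the count of genes called, 0, was 11 with DESeq2, 1 with limma-voom, 9 without a filter, 10 with the replicate block and 7 with the set term, and 0 to 2 with libraries left out. For F5446 against DMSO it was 1 with DESeq2. For romidepsin against DMSO it was 1 with DESeq2, 5 without a filter, 1 with the block and 1 with the set term. For chaetocin against F5446 it was 2, 9, 11 and 5 with DESeq2, no filter, the block and the set term. For romidepsin against chaetocin the 16 became 65 with DESeq2, 72 without a filter, 7 with the 2 groups alone, 144 with the block and 108 with the set term, and 5 to 22 with libraries left out. The causes were not tested.

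Members called, 0 everywhere, became 1 for chaetocin against DMSO with the replicate block or the set term (CMPK2 each time). For romidepsin against chaetocin they became 3 with the block (CMPK2, PARP14 and SAMD9L) and 2 with the set term. SAMD9L was at 0.53 (edgeR adjusted p = 0.0190) with the block and 0.52 with the set term, and PARP14 at 0.42 with the block (edgeR adjusted p = 0.0372). CMPK2 was at 0.83 with the block (edgeR adjusted p = 0.000330). Its block value for chaetocin against DMSO was -0.87 (edgeR adjusted p = 0.0190). With libraries left out the members' medians ran from -0.21 to 0.013 for chaetocin, -0.074 to 0.053 for F5446 and -0.047 to 0.12 for romidepsin against DMSO, from -0.11 to -0.015 for chaetocin against F5446 and from 0.032 to 0.12 for romidepsin against chaetocin. Against DMSO, the romidepsin value of XAF1 was 0.16 without DMSO replicate 1, a reversed sign, and -0.87 without DMSO replicate 4, and that of APOL6 was -0.54 and, reversed, 0.10. Replicate numbers were not taken as pairs: same-numbered libraries had residual correlations of 0.04 to 0.22, over 0.1 in 8 of 15 pairs, though 10 of 13 libraries matched best with their own number.

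With 2 DMSO libraries, a single library moves every comparison with the vehicle, and a fit without one assumes that the other varies like the remaining groups. Genes under 5 CPM, such as IFIT1, IFI44L and MX2, carry few counts, which limits the precision of their differences. For IFI27 the folds are set against a floor that bounds only the DMSO side.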
